A study of Mus musculus with 16 samples.

Results

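Fos and Jun family genes encode the subunits of AP-1, and 6 of them were followed in maps of H3K4me3, a histone mark of active promoters: Fos, Fosb, Fosl2, Jun, Junb and Jund. Each gene was matched to the H3K4me3 regions that lay inside it or within 2 kb of either end, which gave 12 regions, 2 per gene, of 35996 in all. The region with the most counts is called the main region of the gene, and the other one the second region. A further 29 regions within 40 kb of the 6 genes are called distal. All 12 regions passed the filter on low counts.

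AP-1 is a dimer of basic leucine zipper proteins. Jun proteins pair with one another or with Fos proteins, whereas Fos proteins need a Jun partner to bind DNA. In hippocampal neurons Fos, Fosb and Junb are immediate early genes, transcribed within minutes of synaptic activity through calcium, MAP kinase, CREB and SRF signalling, while Jund is transcribed at a steady high rate in most cells. Kdm5c, also called Jarid1c or Smcx, is an X-linked gene whose protein removes methyl groups from lysine 4 of histone H3.

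H3K4me3 was mapped by ChIP-seq, which sequences the DNA pulled down with an antibody to the mark, in hippocampal tissue of adult male mice aged 2 to 4 months, in 6 groups of 2 libraries, with tissue of 2 mice pooled in each library. The groups were Kdm5c KO mice after exposure to novelty (KO novelty), wild-type mice after the same exposure (WT novelty), Kdm5c KO mice without it (KO standard), wild-type mice without it (WT standard), Kdm5c mutants of the line labelled ifKO, and the controls of that line (ifWT). Exposure to novelty meant 1 h alone in an unfamiliar box with tubing and toys. The 8 KO and WT libraries came from mice of a mixed C57 and 129 background, the 4 ifKO and ifWT libraries from C57BL/6J mice, and controls were littermates. The way either mutation was made and the cells in which the ifKO line lacks Kdm5c are not given in the sources used here.

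Total counts ran from 18181192 to 30435735 per library, so that even the weakest of the 12 regions held over 100 reads in every library, and levels are given as CPM, the read count of a region scaled to the library total with TMM factors. The H3K4me3 region at the start of Kdm5c had 59.9 and 60.9 CPM in KO novelty against 61.6 and 72.1 CPM in WT novelty, 60.8 and 60.3 CPM in KO standard against 66.6 and 72.2 CPM in WT standard, and 53.5 and 59.6 CPM in ifKO against 58.1 and 61.5 CPM in ifWT. A mark over the start of a gene does not show whether a part of that gene is deleted, so these values do not check the genotype labels. Markers of neurons, astrocytes, the oligodendrocyte lineage, microglia and vascular cells all had signal, as whole hippocampal tissue would give, and 3 of 28 marker genes had no region at an end. In tissue, fewer cells of a type and less mark per cell cannot be told apart.

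The strength of the mark differed several-fold between the genes. Per kb of region, so that genes can be compared, the mean level over the 12 libraries was 94.0 CPM per kb at the main region of Jund, 70.1 at Jun, 58.9 at Junb, 51.6 at Fosl2, 30.6 at Fos and 25.3 at Fosb. The 3 Jun genes thus stood above the 3 Fos genes on this scale. By CPM per region, the main region of Jun was at percentile 99.8 of all regions, and those of Junb, Jund, Fosl2, Fosb and Fos were at 99.2, 99.2, 97.6, 86.0 and 77.3.

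The shape of the mark around the gene start differed as well. Coordinates are of the mm10 build, and distances are from the outer end of the gene in the RefSeq table. At Fos, the main region (chr12:85473497-85475154) ran from -393 to 1264 bp, where negative distances lie upstream of the start. The main region of Fosb (chr7:19307921-19310735) ran from -617 to 2197 bp, and that of Fosl2 (chr5:32134791-32137156) from -1681 to 684 bp. At Jun, the main region (chr4:95049513-95052175) began 47 bp inside the gene and the second region (chr4:95052558-95053332) ended 336 bp upstream of it, so the start itself lay in a gap between both. Junb had the same layout, with the main region (chr8:84976119-84978695) beginning 53 bp inside the gene and the second region (chr8:84979494-84979962) ending 746 bp upstream. At Jund both regions lay inside the gene, the second (chr8:70698289-70698823) from 550 bp and the main one (chr8:70698890-70700493) from 1151 bp after the annotated start. The gene Junos also has an end within 2 kb of both Jun regions, and Prdx2 has one within 2 kb of the main Junb region.

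**Figure D1:**
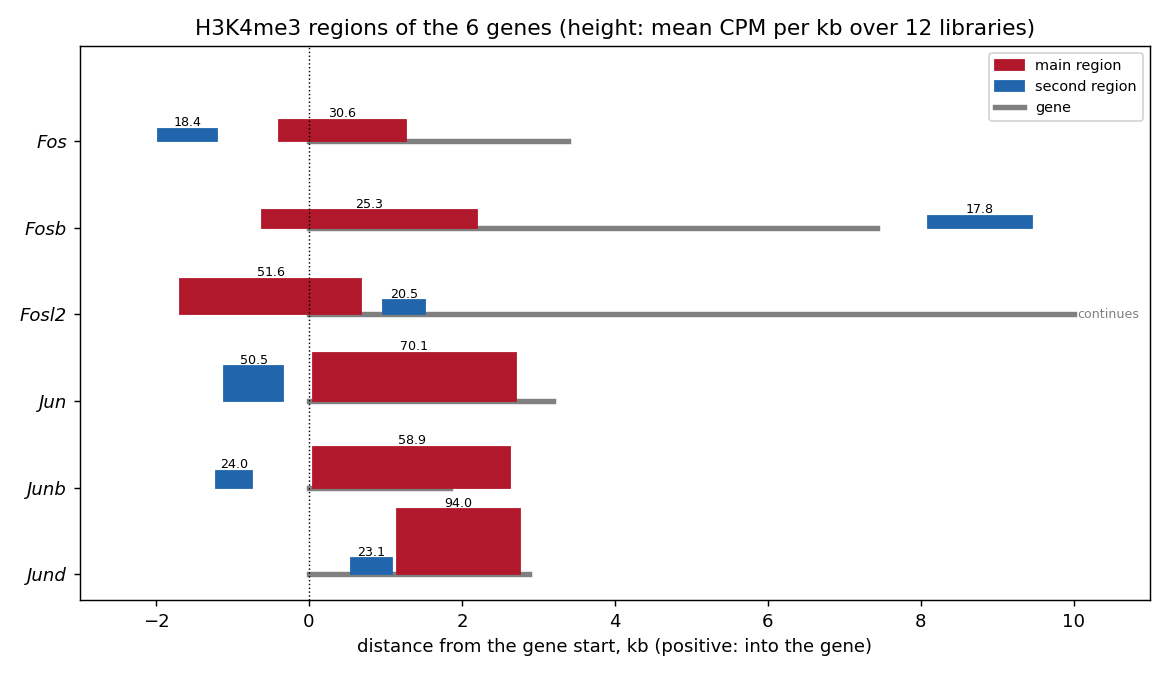
Map of the H3K4me3 regions of the 6 genes, with the distance from the gene start in kb on the x axis and 1 row per gene. The height of a box and the number above it give the mean CPM per kb over 12 libraries; the boxes of Fos, Fosb and Fosl2 span the start, and those of Jun and Junb leave a gap there.

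RefSeq promoter windows (GRCm38.p6), from 250 bases before a gene start to 50 after it, set these gaps in context. All 300 bases lay inside H3K4me3 regions at Fos, Fosb and Fosl2, against 3 bases at Jun and 0 at Junb and Jund. Among the 18160 windows of the table with a region within 2 kb, 67.4% were wholly inside regions and 11.4% had no base inside one. A window with no base inside, but with regions within 2 kb on both sides, as at Junb, was found for 121 windows, 0.666% of them. The table gives 1 start per gene, so other starts, which may matter at Jund, were not examined.

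The bases before the start of the genes on which the results below turn, 250 for each, are printed from the same table, 5′ to 3′ along the gene. Fos and Fosb are shown because their novelty libraries lay above the standard ones, and Jun and Junb because the start lies between the regions. Capitals mark matches on either strand to the cAMP response element TGACGTCA, its core TGACG, the AP-1 sites TGANTCA and TGACATCA, the CArG box bound by SRF, or TATAAA.
Fos (chr12:85473640-85473889, plus strand): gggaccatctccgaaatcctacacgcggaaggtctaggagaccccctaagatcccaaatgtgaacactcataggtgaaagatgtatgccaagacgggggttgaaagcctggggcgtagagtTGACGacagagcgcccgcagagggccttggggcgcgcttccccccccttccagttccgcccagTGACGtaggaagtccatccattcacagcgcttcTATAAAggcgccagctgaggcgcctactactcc
Fosb (chr7:19310046-19310295, minus strand): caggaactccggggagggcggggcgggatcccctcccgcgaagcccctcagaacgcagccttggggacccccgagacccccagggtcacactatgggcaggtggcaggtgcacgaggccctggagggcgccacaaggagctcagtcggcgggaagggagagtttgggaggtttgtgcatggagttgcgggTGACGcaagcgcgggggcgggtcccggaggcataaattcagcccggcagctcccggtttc
Jun (chr4:95052223-95052472, minus strand): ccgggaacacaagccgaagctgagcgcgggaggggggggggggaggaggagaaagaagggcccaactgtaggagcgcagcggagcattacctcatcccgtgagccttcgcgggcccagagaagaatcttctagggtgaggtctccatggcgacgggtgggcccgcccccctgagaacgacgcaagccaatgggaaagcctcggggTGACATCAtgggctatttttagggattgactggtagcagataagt
Junb (chr8:84978749-84978998, minus strand): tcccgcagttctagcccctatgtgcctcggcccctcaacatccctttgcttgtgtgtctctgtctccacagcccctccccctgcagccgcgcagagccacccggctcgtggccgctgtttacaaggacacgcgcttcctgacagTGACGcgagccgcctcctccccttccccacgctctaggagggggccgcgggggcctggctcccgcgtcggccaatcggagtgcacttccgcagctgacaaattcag

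The core TGACG occurred at Fos from bases -129 and -66, at Fosb from base -60 and at Junb from base -106, counted from the start. It was present in 20.8% of all 32851 windows. TATAAA, in 13.6% of windows, began at base -33 of Fos and at base 1 of Junb, where it lies beyond the printed stretch. Jun held TGACATCA at base -45, a sequence found in 3.62% of windows. None of the 6 windows held the palindromes TGACGTCA (1.79% of windows) and TGANTCA (7.81%) or a CArG box (1.63%), which says only that these letters are not in these windows.

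Fosb carried more H3K4me3 after novelty than under standard conditions, averaged over genotypes. FOSB is a Fos protein whose truncated splice form, deltaFOSB, accumulates in neurons under repeated activity. Its main region had 79.6 and 79.6 CPM in KO novelty and 75.6 and 79.1 CPM in WT novelty, against 71.3 and 68.3 CPM in KO standard and 65.5 and 64.3 CPM in WT standard. All 4 novelty libraries stood above all 4 standard libraries. The log2 change averaged over genotypes was 0.22 ± 0.04 (SE), a rise of 16.6%, with an adjusted p of 0.0187 in edgeR's quasi-likelihood test with Benjamini-Hochberg adjustment over all 35955 tested regions. The call was lost when WT standard replicate 1 (adjusted p 0.164) or 2 (0.128), WT novelty replicate 2 (0.217) or KO novelty replicate 1 (0.111) or 2 (0.0856) was left out, while the log2 change without 1 library stayed between 0.20 and 0.24.

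Fos had a change of like size that did not pass the threshold. Its main region had 57.2 and 59.8 CPM in KO novelty and 53.1 and 56.3 CPM in WT novelty, against 50.6 and 50.9 CPM in KO standard and 45.6 and 49.5 CPM in WT standard. Again every novelty library was above every standard library. The averaged log2 change was 0.20 ± 0.05 (SE; adjusted p 0.100 in edgeR's quasi-likelihood test), and it passed when only the 8 KO and WT libraries were fitted (0.0119) or when the scaling followed the strength of a region (0.0342).

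Of the 6 genes, 1 was called on average over genotypes, against 0.0473% of all regions, and it rose, as did 0.0445% of all regions and 0.061% of the 16401 main gene-end regions. Libraries did not overlap in that direction at 2 of the 12 regions, Fos and Fosb, against 1.17% of all regions. Within a genotype no gene was called by edgeR. In WT the log2 changes were 0.25 ± 0.06 at Fosb (adjusted p 0.193) and 0.20 ± 0.07 at Fos (0.697), where 0.00556% of all regions were called, and 1679 regions had an unadjusted p below 0.05. In KO the log2 changes were 0.19 ± 0.05 at Fosb and 0.20 ± 0.06 at Fos, with adjusted p of 1.00 for both, where 0% of regions were called and 1416 passed at an unadjusted 0.05. The WT call at Fosb was gained when only the 4 compared libraries (adjusted p 0.0126) or the 8 KO and WT libraries (0.0199) were fitted.

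The mark of the other 4 genes did not pass after novelty. Fosl2, whose protein FRA2 is a Fos protein without the C-terminal transactivation domain of FOS, had an averaged log2 change of 0.04 ± 0.04 at the main region. The 3 partners had -0.03 ± 0.04 at Jun, -0.05 ± 0.04 at Junb and -0.06 ± 0.04 at Jund. Each of these had a 95% interval that included 0, with bounds of -0.13 to 0.11 over the 4 genes. Junb, an immediate early gene as Fos is, had 150 and 145 CPM in KO novelty and 142 and 155 CPM in WT novelty, against 150 and 153 CPM in KO standard and 151 and 157 CPM in WT standard, and these libraries overlapped.

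**Figure D2:**
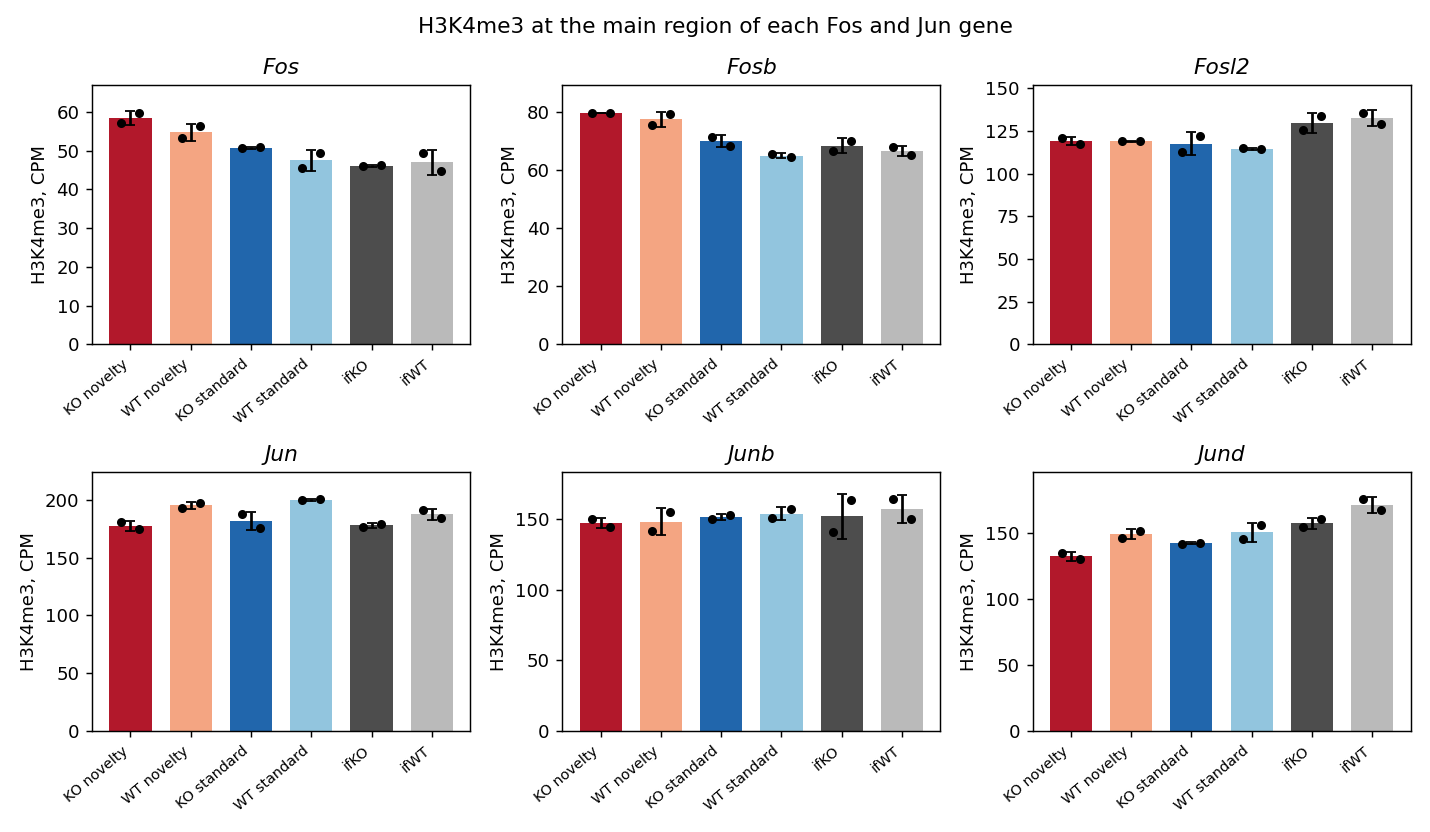
H3K4me3 at the main region of each gene in CPM (y axis, starting at 0) by group, with bars for the mean of 2 libraries, error bars for the SD and points for the libraries. At Fos and Fosb the 4 novelty libraries lie above the 4 standard ones, and at Jun and Jund the KO libraries lie below the WT ones.

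The change at Fosb after novelty was measured at its start. The second region of Fosb (chr7:19300663-19302022) lies 674 bp past the 3′ end, where the gene Gm26802 also has an end, and had 23.6 and 23.2 CPM in KO novelty and 22.8 and 21.7 CPM in WT novelty, against 24.6 and 24.5 CPM in KO standard and 24.4 and 23.4 CPM in WT standard. Its averaged log2 change was -0.09 ± 0.06 (adjusted p 0.947, edgeR). As a share of the main region, which does not depend on library scaling, it was 27.4% to 30.1% in the 4 novelty libraries, against 34.6% to 37.3% in the 4 standard libraries. A second region that lost share in this way without overlap was found for 1.07% of the 4572 pairs of main and second regions in the genome.

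The second region of Fos (chr12:85471921-85472685), 1205 bp upstream, had an averaged log2 change of 0.06 ± 0.08. The share it formed of the main region was 21.9% to 26.8% after novelty against 26.0% to 28.4% under standard conditions, and these ranges overlapped. Inside Fosl2 (chr5:32137436-32137985) the second region had 14.1 and 12.6 CPM in KO novelty and 14.6 and 14.4 CPM in WT novelty, against 10.3 and 9.36 CPM in KO standard and 11.5 and 13.3 CPM in WT standard. The averaged log2 change there was 0.34 ± 0.10, with an adjusted p of 0.389 in edgeR. Summed levels of 4 measured astrocyte markers were also 187 to 198 CPM in KO novelty and 184 to 192 CPM in WT novelty, against 201 to 216 CPM in KO standard and 202 to 205 CPM in WT standard, and their part in the novelty changes was not tested.

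Whether novelty acted differently in KO and WT hippocampus was tested directly. No region of the 6 genes, and 0% of all regions, was called by edgeR for the interaction of genotype and novelty, with 1055 regions at an unadjusted p under 0.05, and DESeq2 and limma-voom called 0 of the 6 genes too. The interaction, the novelty change in KO minus that in WT, was -0.06 (95% interval -0.22 to 0.09) at Fosb and -0.0011 (-0.18 to 0.18) at Fos, on the log2 scale. These intervals hold the differences compatible with the data, and they do not set a smallest difference that could be detected.

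Jun and Jund, 2 of the 3 partner genes, had less H3K4me3 in KO than in WT hippocampus. JUN is the strongest activator of the family and its gene is switched on by AP-1 itself, and JUND is the partner present in unstimulated neurons. The main region of Jun had 181 and 175 CPM in KO novelty and 187 and 176 CPM in KO standard, against 193 and 197 CPM in WT novelty and 199 and 200 CPM in WT standard. The 4 KO libraries were all below the 4 WT libraries. Averaged over both conditions the log2 change was -0.14 ± 0.04 (adjusted p 0.00418, edgeR), so that the level fell by 9.03%.

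The main region of Jund had 135 and 130 CPM in KO novelty and 142 and 143 CPM in KO standard, against 147 and 152 CPM in WT novelty and 145 and 156 CPM in WT standard. Here too no KO library reached the lowest WT library. KO libraries lay below WT libraries without overlap at 2 of the 12 regions, against 13.8% of all regions. The averaged log2 change was -0.13 ± 0.04 (adjusted p 0.00927, edgeR). Without WT standard replicate 2 or KO novelty replicate 2 the adjusted p was 0.0739 or 0.0528, and with scaling to library totals it was 0.0550. The gene Iqcn also has an end within 2 kb of this region.

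These 2 genes of 6 compare with 32.1% of all regions called in KO against WT averaged over conditions, with the 13.9% of all regions called lower, and with 46.1% lower among the 6100 regions of at least 64 CPM, to which Fosb, Fosl2, Jun, Junb and Jund belong. The median log2 change of those strong regions was -0.10. The share of the 6 genes that fell is therefore near the background. With offsets that follow the strength of a region, chosen to remove this trend, the log2 changes of Jun and Jund were -0.04 and -0.03 (adjusted p 0.365 and 0.445), and Fos, Fosb and Fosl2 were called higher instead, at 0.14, 0.14 and 0.11 (adjusted p 0.0130, 0.00238 and 0.0161, edgeR with these offsets). These offsets called 23.9% of all regions, 14.4% higher and 9.52% lower. With scaling to library totals 3 genes were called, Jun lower (-0.10, adjusted p 0.0273) and Fos and Fosb higher (0.14 and 0.11, adjusted p 0.0187 and 0.0226), where 20.3% of all regions were called higher and 7.13% lower. On the TMM scale none of the 3 Fos genes passed, at 0.09 ± 0.05, 0.07 ± 0.04 and 0.02 ± 0.04.

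In single conditions, 1 gene of 6 was called after novelty, against 17% of all regions, and it fell. Of all regions 5.94% were called lower there, as were 11% of main gene-end regions and 21.5% of regions of at least 64 CPM. The gene was Jund, with a log2 change of -0.17 ± 0.05 (adjusted p 0.0213, edgeR). The call was lost without WT novelty replicate 2 (0.192), KO novelty replicate 1 (0.0755) or KO novelty replicate 2 (0.173), by scaling to library totals (0.0559) and with strength offsets (0.262). Jun had -0.14 ± 0.05 after novelty (adjusted p 0.0639) and -0.14 ± 0.05 under standard conditions (0.0694), just short of the threshold. Under standard conditions no gene of the 6 was called by edgeR, against 13.4% of all regions, where 10054 had an unadjusted p under 0.05. DESeq2, limma-voom, RLE factors and the fits with fewer groups each called Jun there, with adjusted p of 0.0126 to 0.0455. With strength offsets Fosb was the gene called under standard conditions, higher in KO at 0.17 (adjusted p 0.0207, edgeR with these offsets). These offsets called 7.45% of main gene-end regions higher there.

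The small region upstream of Junb rose in KO. It had 12.9 and 11.5 CPM in KO novelty and 12.9 and 10.7 CPM in KO standard, against 10.3 and 8.91 CPM in WT novelty and 9.52 and 9.21 CPM in WT standard. The lowest KO library stood above the highest WT library, which was so at 1 of the 12 regions, against 17.1% of all regions. Its averaged log2 change was 0.34 ± 0.09, a level 26.7% higher (adjusted p 0.00468, edgeR), where 18.1% of all regions rose. With strength offsets the change was 0.24 (adjusted p 0.0532). The main region of Junb, over the gene itself, had an averaged log2 change of -0.02 ± 0.04 (95% interval -0.10 to 0.07).

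At all 3 Jun genes the second region was larger relative to the main one in KO than in WT libraries by the median. At Jun, where Junos also has an end within 2 kb of both regions, KO and WT libraries did not overlap. The share there was 18.7% to 21.3% (median 21.0%) in 4 KO libraries against 17.1% to 18.04% (17.8%) in 4 WT libraries. At Junb it was 7.01% to 8.60% (8.27%) in KO against 5.75% to 7.27% (6.09%) in WT, and at Jund 8.37% to 10.9% (8.74%) in KO against 6.85% to 8.59% (7.76%) in WT, with overlap at both. A higher share in KO without overlap was found for 27.4% of all pairs of main and second regions. At the 3 Fos genes the median share was lower in KO than in WT, with overlap at each: 21.9% to 28.4% (25.2%) in KO against 24.4% to 26.8% (26.6%) in WT at Fos, 29.1% to 35.9% (32.1%) in KO against 27.4% to 37.3% (33.3%) in WT at Fosb, and 7.65% to 11.7% (9.90%) in KO against 10.0% to 12.3% (11.9%) in WT at Fosl2. The second region of Fosl2 had an averaged log2 change of -0.23 ± 0.10 (adjusted p 0.0855, edgeR).

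**Figure D3:**
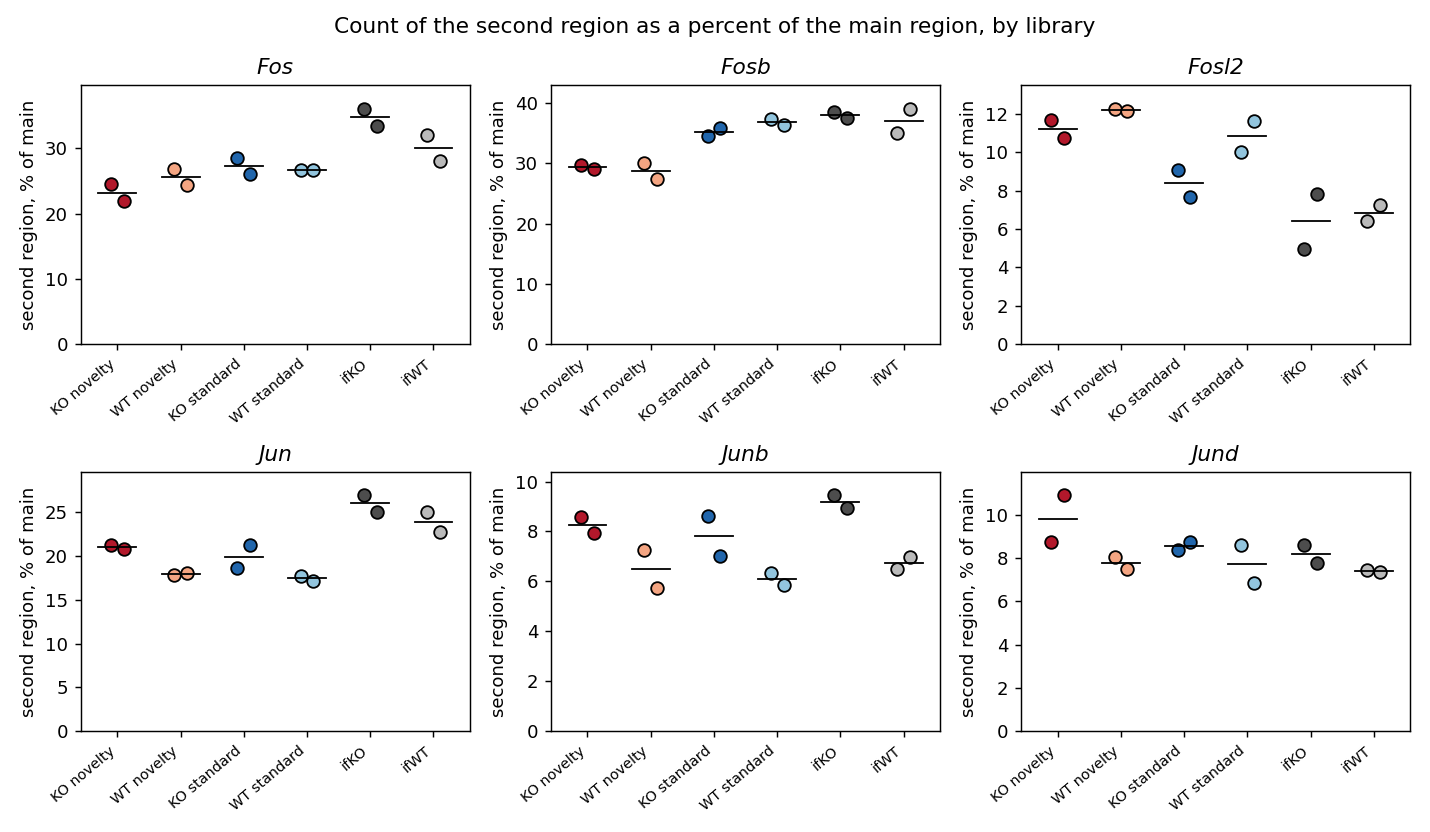
Count of the second region as a percent of the count of the main region (y axis, starting at 0), by group, with 1 point per library and a line at the mean of 2. At Jun the KO points lie above the WT points, and at Fosb the novelty points lie below the standard points.

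Summed levels of cell type markers also differed by genotype. The summed level of 5 endothelial and mural markers was 123 to 139 CPM in KO novelty against 148 to 149 CPM in WT novelty, and 127 to 145 CPM in KO standard against 156 to 159 CPM in WT standard. Summed microglial markers were 23.1 to 26.9 CPM in KO novelty against 17.7 to 21.5 CPM in WT novelty, and 24.0 to 28.0 CPM in KO standard against 21.7 CPM in both WT standard libraries. The 3 measured oligodendrocyte lineage markers summed to 95.5 to 97.5 CPM in KO novelty against 99.1 to 102 CPM in WT novelty. They summed to 91.0 to 99.4 CPM in KO standard against 101 to 105 CPM in WT standard. The ranges of these 3 lists did not overlap between genotypes in either condition. How often sums of other genes lie apart in this way was not computed. By gene, averaged log2 changes in KO ran from -0.30 to -0.13 for endothelial and mural markers, with 3 of 5 called lower. For microglial markers they ran from -0.21 to 0.52, with 1 of 5 called higher. For oligodendrocyte lineage markers they ran from -0.17 to -0.02, with 0 of 3 called. Among main gene-end regions 12.9% were called higher and 25.4% lower. Summed astrocyte markers, given above, overlapped. Summed neuronal markers overlapped too, at 658 to 667 CPM in KO novelty against 627 to 705 CPM in WT novelty and 631 to 678 CPM in KO standard against 667 to 723 CPM in WT standard. Without Camk2a the 7 other neuronal markers summed to 495 to 501 CPM in KO novelty against 485 to 547 CPM in WT novelty, and to 477 to 508 CPM in KO standard against 517 to 557 CPM in WT standard, the last pair without overlap. The part of these differences in the changes at Jun, Jund and Junb was not tested.

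In the ifKO line no gene of the 6 was called, against 5.38% of all regions in edgeR, where 6711 had an unadjusted p under 0.05. Jund had 155 and 161 CPM in ifKO against 176 and 167 CPM in ifWT, with a log2 change of -0.12 ± 0.05 (adjusted p 0.208). Jun had 176 and 179 CPM in ifKO against 191 and 184 CPM in ifWT, at -0.08 ± 0.05 (0.471). The region upstream of Junb had 13.3 and 14.6 CPM in ifKO against 10.6 and 10.5 CPM in ifWT, at 0.40 ± 0.13 (0.0720). The ifKO libraries lay below the ifWT ones without overlap at Jun and Jund, as at 22.3% of all regions, and above them at the region upstream of Junb and the second region of Fosb, as at 21.8%. The remaining main regions had log2 changes of -0.05 to 0.04. The share of the second region at Junb was 8.93% and 9.45% in ifKO against 6.48% and 6.99% in ifWT. At Jun it was 25.1% and 27.0% in ifKO against 22.8% and 25.0% in ifWT. It was likewise higher without overlap at Jund, with 7.79% and 8.60% in ifKO against 7.34% and 7.45% in ifWT. The same held at Fos, with 33.5% and 36.1% in ifKO against 28.0% and 32.0% in ifWT. At Fosb and Fosl2 the shares overlapped. A higher share in ifKO without overlap was found for 35.6% of all pairs of main and second regions. DESeq2 and limma-voom also called 0 of the 6 genes in this line.

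The KO change under standard conditions and the ifKO change differed at no region of the 6 genes in edgeR, with 0.701% of all regions called for that difference and 3040 at an unadjusted p under 0.05. The 2 lines differ in background and cohort, so differences in level between them cannot be told apart from those. Both C57BL/6J groups had higher Fosl2 levels, at 130 ± 5.84 CPM in ifKO and 133 ± 4.49 CPM in ifWT (SD, n = 2 each), than the 4 groups of mixed background at 115 to 119 CPM. Summed neuronal markers, among them Camk2a, were 756 to 793 CPM in ifKO against 602 to 665 CPM in ifWT. Camk2a itself had 272 and 263 CPM in ifKO against 140 and 124 CPM in ifWT, and the 7 other neuronal markers overlapped, at 493 to 521 CPM in ifKO against 478 to 524 CPM in ifWT. Endothelial and mural markers were 113 to 123 CPM in ifKO against 125 to 131 CPM in ifWT, without overlap. Oligodendrocyte lineage markers were 94.3 to 97.5 CPM in ifKO against 99.7 to 109 CPM in ifWT, also without overlap. At single regions, the 2 ifKO and 2 ifWT libraries lay apart in either direction at 44.1% of all regions. No gene of either list was called in ifKO by edgeR. Astrocyte markers, at 155 to 166 CPM in ifKO against 159 to 166 CPM in ifWT, and microglial markers, at 19.4 to 21.4 CPM in ifKO against 20.3 to 21.7 CPM in ifWT, overlapped. The part of these differences in the values of this line was not tested.

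**Figure D4:**
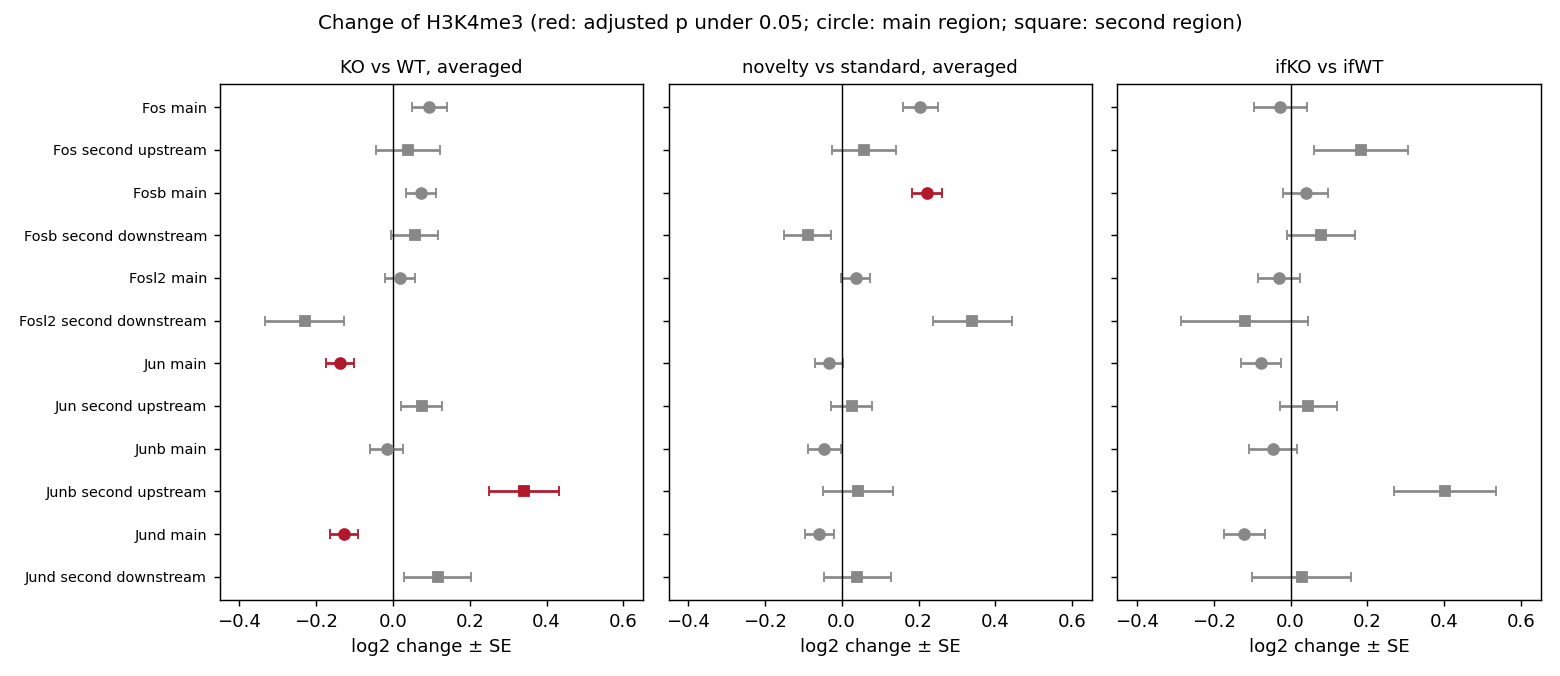
Log2 change (x axis) with its SE for the main and second regions of the 6 genes (rows) in KO against WT averaged over conditions, novelty against standard averaged over genotypes, and ifKO against ifWT. Red symbols passed an adjusted p of 0.05: Jun, Jund and the region upstream of Junb in KO, and Fosb after novelty.

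Across the 6 groups, the order of mean levels differed between Fos and Jun genes. Fos ran from 58.5 ± 1.84 CPM in KO novelty through 54.7 ± 2.2 in WT novelty, 50.7 ± 0.27 in KO standard, 47.5 ± 2.77 in WT standard and 47.0 ± 3.24 in ifWT to 46.1 ± 0.29 in ifKO (SD, n = 2 each), and the last 3 did not differ beyond their SD. Fosb had KO novelty (79.6 ± 0.03) and WT novelty (77.3 ± 2.51) at the top, which did not differ beyond their SD, and the other 4 groups at 64.9 to 69.8 CPM, where no neighbours did. Jun was highest in WT standard (200 ± 0.56) and WT novelty (195 ± 2.79), followed by ifWT (187 ± 4.87) and the 3 mutant groups at 178 to 182 CPM. From ifWT down, no group differed from its neighbour beyond the SD. Jund was highest in ifWT (172 ± 5.81) and lowest in KO novelty (132 ± 3.15). At Junb (147 to 157 CPM) no group differed from its neighbour beyond the SD.

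Over the 12 libraries the levels of Fos and Fosb followed each other, with a Pearson r of log2 CPM of 0.90 as a description, since the libraries share cohort and depth. Among 11258 main gene-end regions, the ones most like Fos were those of Pip4k2c (0.92) and Gm32255 (0.92), and the ones most like Fosb those of Pde10a (0.90) and Fos. The next on the list for Fos was the region shared by Dusp1, a phosphatase gene that is itself induced by activity, and Gm34455 (0.91), which is named here after its value was seen. Fosl2 was most like the regions of the Mir17 cluster (0.97) and A930005G22Rik (0.97), Jun like those of Ccpg1 (0.97) and Ttc17 (0.97), Junb like those of Adamts13 (0.95) and Slco3a1 (0.89), and Jund like those of Cul1 (0.98) and Gm7854 (0.98).

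Among distal regions, calls were made by genotype. Of 29, 8 were called in KO against WT averaged over conditions (against 32.1% of all regions), 5 higher and 3 lower, and 0 in any novelty comparison by edgeR, DESeq2 or limma-voom. Near Junb, the region 6.34 kb upstream had a log2 change of 0.21 ± 0.06 in KO (adjusted p 0.00602, edgeR) and of 0.29 ± 0.08 in ifKO (0.0358). It was the 1 distal region called in ifKO, against 5.38% of all regions, although not by DESeq2 (0.0821) or limma-voom (0.0559). A region within the Junb neighbourhood but downstream fell by 0.22 ± 0.07 on the log2 scale in KO. Upstream of Fosb, a region 16.4 kb away rose by 0.28 ± 0.08, while downstream of it a region 10.9 kb away, at Gm51441, fell by 0.40 ± 0.11 and one 30.4 kb away, at Vasp, fell by 0.17 ± 0.05. The region 17.6 kb upstream of Fos, with a start or end of Gm38543 within 2 kb, rose by 0.20 ± 0.07. Near Jund, the region 23.4 kb upstream, which has a start or end of Lsm4 within 2 kb, rose by 0.18 ± 0.05. One 12.9 kb upstream, with a start or end of Gm39191 within 2 kb, rose by 1.51 ± 0.49 with only 2 to 21 reads per library in the 8 KO and WT libraries. DESeq2 did not call the region near Fos (adjusted p 0.0563) or the last one near Jund (0.0709). With strength offsets these were not called either (0.0680 and 0.0796), nor were the one at Vasp (0.0645) and the one upstream of Fosb (0.0695), and with library totals the one downstream of Junb was not (0.0568). Without WT standard replicate 1 the count of distal calls was 4, and without KO standard replicate 1 it was 5. In single conditions 1 distal region of 29 was called under standard conditions, against 13.4% of all regions, and 2 after novelty, against 17%. These counts ran from 0 to 2 and from 0 to 1 without 1 library of the compared groups, and the count in ifKO from 0 to 2.

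Dimer partners of Fos and Jun outside the family were taken from a list. Of 16 measured genes for ATF, BATF, MAF and related proteins, 1 rose and 3 fell in KO averaged over conditions, where 12.9% of main gene-end regions rose and 25.4% fell, and their median log2 change was -0.06, equal to the -0.06 of all main gene-end regions. The 3 that fell were Atf2, which pairs with JUN (-0.22 ± 0.04, adjusted p 0.000188, edgeR), Atf7 (-0.15 ± 0.04, 0.00370) and Mafg (-0.14 ± 0.04, 0.00941). With strength offsets Atf7 and Mafg were not called (0.122 and 0.285), and 2 genes of the list rose and 1 fell. In ifKO, 1 of the 16 partners was called, Atf3, which fell by 0.25 ± 0.08 (0.0476), against 1.82% of main gene-end regions called lower. That call was lost with library totals, DESeq2, limma-voom and the fit of the ifKO cohort alone (adjusted p 0.0630 to 0.163). No partner was called in any novelty comparison by edgeR, DESeq2 or limma-voom.

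Genes that control Fos and Jun transcription or protein turnover formed another list. Of 30 on the list 27 had a gene-end region, and 16 of these fell and 0 rose in KO averaged over conditions, against 25.4% and 12.9% of main gene-end regions, with a median log2 change of -0.13. They include Srf, the factor at the Fos serum response element (-0.21 ± 0.04, adjusted p 0.000174, edgeR), Fbxw7, of the ubiquitin ligase that marks JUN for degradation (-0.22 ± 0.04, 0.000195), Mapk3, which encodes the kinase ERK1 (-0.21 ± 0.05, 0.00190), and Mef2c (-0.44 ± 0.15, 0.0251), at a low mean of 3.51 CPM, which DESeq2 did not call (0.0552). Under standard conditions 7 fell, against 6.87% of main gene-end regions, led by Rps6ka3 (-0.24 ± 0.07), Crtc1 (-0.21 ± 0.06), Srf (-0.19 ± 0.06) and Ep300 (-0.18 ± 0.05), and after novelty 8 fell, against 11% of main gene-end regions, led by Fbxw7 (-0.27 ± 0.06), Mapk3 (-0.25 ± 0.07), Mrtfb (-0.24 ± 0.06) and Srf (-0.24 ± 0.06). With strength offsets 9 of the 16 were still called lower in the averaged comparison, 2 of the 7 under standard conditions and 5 of the 8 after novelty. Newly called with these offsets were 1 gene higher in the averaged comparison, 1 lower under standard conditions and 1 higher after novelty. Among main gene-end regions these offsets called 12.8%, 2.78% and 4.67% lower in the same order. With library totals 11, 1 and 5 were still called lower, with no new call, against 13.1%, 2.21% and 4.94% of main gene-end regions. Among regions of at least 64 CPM the share that fell in the averaged comparison was 46.1%. None was called in any novelty comparison or in ifKO by edgeR, DESeq2 or limma-voom.

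Genes reported as AP-1 targets in other work formed the last list. Of 18 measured, 2 rose and 3 fell in KO averaged over conditions, where 12.9% of main gene-end regions rose and 25.4% fell, with a median of -0.04. With strength offsets 4 rose and 2 fell, where 13.5% and 12.8% of main gene-end regions did, and with library totals 4 rose and 1 fell, against 15.5% and 13.1% of those regions. Mmp9, a matrix protease (0.40 ± 0.09, adjusted p 0.00108, edgeR), and Cdk5, a neuronal kinase (0.28 ± 0.04, 4.04e-06), rose. Pdyn, the dynorphin precursor (-0.54 ± 0.11, 0.000398), Bdnf, a neurotrophin (-0.25 ± 0.09, 0.0385), and Scg2, secretogranin II (-0.17 ± 0.06, 0.0285), fell. DESeq2 called neither Bdnf (0.0532) nor Scg2 (0.156). In ifKO, Camk2a, the alpha subunit of the main postsynaptic kinase, rose by 1.02 ± 0.06 (3.17e-13), and Sirt1 fell by 0.32 ± 0.08 (0.00871). Among main gene-end regions 3.47% were called higher in ifKO and 1.82% lower. Sirt1 was not called by DESeq2 (0.146). No target was called in any novelty comparison by edgeR with TMM factors, DESeq2 or limma-voom. With library totals 1 target was called higher after novelty in WT, against 0.0122% of main gene-end regions. With strength offsets 1 was called higher in WT and 1 averaged over genotypes, against 0.0305% and 0.177% of those regions.

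Kdm5C and H3K4me1, a mark of enhancers, were profiled in 1 KO and 1 WT library each, over 2321 regions. None of these lay within 2 kb of the 6 genes. By another rule, overlap with the H3K4me3 region itself, 12.1% of main gene-end regions were met, so 0 of 6 genes is not far from that share. Of the 2321 regions, the only one within 40 kb of the 6 genes lay 23879 bp from Jund (chr8:70673601-70673860). It was inside the distal region that rose in KO and has a start or end of Lsm4 within 2 kb. The Kdm5C signal there was 191 in the KO library against 1101 in the WT library, and the H3K4me1 signal was 40 in the KO library against 276 in the WT library. With 1 library per genotype there was no test. Summed over all 2321 regions the WT signal was 4.50 times the KO signal for Kdm5C and 1.63 times for H3K4me1.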

How the data were processed

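H3K4me3 was measured in 12 libraries of 6 groups. The deposited H3K4me3 files hold read counts over a set of 36005 regions that is the same in each file, of which 9 repeats were removed. The deposited files for Kdm5C and H3K4me1 are called raw counts in their headers, but many values are multiples of 50, so they were read as a signal (coverage) and not tested. The submitters' processing notes name the build mm10 and the tools R 3.3, MACS2 2.1.0, featureCounts, Bowtie2 2.2.9, DESeq2 1.10.0 and SAMtools 1.3.1. The definition and counting of regions are not given in the sources used here, nor whether coordinates count from 0 or 1. If peaks were called in these same libraries, region edges depend on the data.

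Counts were fitted with edgeR 4.0.16 under R 4.3.3 (quasi-likelihood F test, all 12 libraries, 1 mean per group, TMM factors, filterByExpr, which kept 35955 of 35996 regions), with Benjamini-Hochberg adjustment over all tested regions and a threshold of 0.05. The script was tested on simulated data. Replicates are labelled as separate samples, and p-values measure the spread between pools. Total counts were 18181192 to 30435735 per library, and p-values cover counting error together with that spread. Alternatives were DESeq2 1.42.0, limma-voom 3.58.1, RLE factors, library totals, no filter, loess offsets that follow region strength, fits of fewer groups, a replicate block, gene distances of 1 and 5 kb, summed regions and leaving out each library. Genes were matched with the RefSeq table (GRCm38.p6). The 6 genes and the lists (dimer partners, upstream regulators, reported targets, cell type markers) were chosen with earlier results of these data known. From each list up to 4 called genes per comparison were named by size of change, and for likeness the 2 regions with the highest r. Single values of some list genes are not reported here.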

Additional observations from a re-analysis of the deposited data

Results flagged for a closer look

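For 2 of the 18 measured genes of the list of reported AP-1 targets, the change in KO under standard conditions and the change in ifKO differed by the test of that difference (edgeR's quasi-likelihood test, adjusted over all regions). Among main gene-end regions 0.616% were called for this difference. At Camk2a the difference in log2 change was -0.987587 ± 0.09 (SE; adjusted p 4.06e-08), with 170 and 153 CPM in KO standard against 150 and 166 CPM in WT standard, and 272 and 263 CPM in ifKO against 140 and 124 CPM in ifWT. At Sirt1 it was 0.549975 ± 0.11 (adjusted p 0.00757), with 78.5 and 81.2 CPM in KO standard against 61.5 and 74.2 CPM in WT standard, and 82.2 and 105 CPM in ifKO against 119 and 114 CPM in ifWT. DESeq2 did not call the difference at Sirt1 (adjusted p 0.295). Strain background and cohort differ between the lines and cannot be told apart from the mutation.

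In the Kdm5C data, which no comparison above tests, the region 23879 bp from Jund had a signal of 191 in the KO library against 1101 in the WT library. With 1 library per genotype the difference was not tested.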

How the results depend on the processing

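The alternatives gave 1720 recomputed log2 changes of the 12 regions, of called distal regions and of called list genes, of which 1515 kept direction and side of the threshold, 82 were no longer called, 27 were newly called and 96 turned sign, and 0 of the 96 were called in either fit. No 1 library decided the direction of a called change.

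The number of the 6 genes called in KO against WT under standard conditions was 0 in edgeR with TMM. It was 1, Jun lower, with RLE factors, DESeq2, limma-voom, the fit of 1 cohort and the fit of the compared groups. With strength offsets it was also 1, Fosb higher (log2 change 0.17, adjusted p 0.0207, edgeR with these offsets). After novelty it was 1, and it was 2 with RLE factors, DESeq2, limma-voom and both fits of fewer groups, 0 with library totals and strength offsets, and 0 to 1 without 1 library. Averaged it was 2, and it was 3 with library totals (Jun, Fos and Fosb), 3 with strength offsets (Fos, Fosb and Fosl2) and 1 to 2 without 1 library. For novelty in WT it was 0, and 1 with both fits of fewer groups. For novelty averaged over genotypes it was 1, and it was 2 with strength offsets and the fit of 1 cohort, 0 with all regions of a gene summed, and 0 to 1 without 1 library. Over all regions, 17 were called for averaged novelty, 41 with strength offsets, 102 in the fit of 1 cohort, 11 with DESeq2 and 10 with limma-voom; in WT 2 were called, against 47 in the fit of 1 cohort and 106 in that of the compared groups. Strength offsets were chosen because the change of a region in KO followed its level. The median log2 change of all regions in KO averaged was 0.0087 with TMM, 0.050 with library totals and -0.020 with strength offsets.

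The replicate block left the number of genes called as it was in every comparison, with adjusted p of 0.0311 for Fosb after novelty, 0.00597 for Jun and 0.0129 for Jund in KO averaged, and it brought the region upstream of Junb past the threshold in KO after novelty (0.0458). Replicate numbers showed no strong pairing: the correlation of deviations between groups ran from -0.07 to 0.23 in the KO cohort and was -0.03 between ifKO and ifWT. The highest values in the KO cohort were 0.23 between the WT groups and 0.12 between the KO groups. Whether samples share litters or handling was not tested.

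The 6 genes, and the second regions in brackets, that turned sign did so at small log2 changes. For KO against WT under standard conditions the value of opposite sign was with library totals 0.019 at Junb, with strength offsets 0.067 at Junb, -0.024 at Jund (second region) and 0.0084 at Jund, with all regions of a gene summed 0.00052 at Junb. For KO against WT after novelty the value of opposite sign was with library totals 0.040 at Fosl2 and 0.031 at Junb, with limma-voom 0.0012 at Fosl2, with strength offsets 0.092 at Fosl2 and 0.089 at Junb, with the fit of 1 cohort 0.0011 at Fosl2, with the fit of the compared groups 0.0010 at Fosl2, with all regions of a gene summed 0.014 at Junb. For KO against WT averaged over conditions the value of opposite sign was with library totals 0.025 at Junb, with strength offsets -0.049 at Fos (second region) and 0.078 at Junb, with all regions of a gene summed -0.0038 at Fosl2 and 0.0075 at Junb. For novelty against standard in WT the value of opposite sign was with RLE factors 0.0011 at Jund (second region), with library totals 0.00052 at Jund (second region), with DESeq2 0.0012 at Jund (second region), with limma-voom 0.00088 at Jund (second region), with strength offsets -0.0011 at Jun (second region) and 0.0027 at Jund, with the fit of 1 cohort 0.0060 at Jund (second region), with the fit of the compared groups 0.00063 at Jund (second region). For the interaction the value of opposite sign was with strength offsets 0.0019 at Fos, with the replicate block 0.0010 at Fos, with the fit of 1 cohort -0.0018 at Jun. For ifKO against ifWT the value of opposite sign was with strength offsets 0.0090 at Fos, 0.040 at Fosl2, 0.0011 at Jun, 0.028 at Junb and -0.033 at Jund (second region), with all regions of a gene summed 0.024 at Fos.

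Without 1 library, the log2 changes that turned sign are given by their lowest and highest value. In KO against WT under standard conditions they ran from -0.021 to 0.094 at Fosl2, from -0.052 to 0.0072 at Junb and from -0.034 to 0.19 at Jund (second region). In KO against WT after novelty they ran from -0.098 to 0.00038 at Fos (second region), from -0.021 to 0.019 at Fosl2 and from -0.072 to 0.056 at Junb. In KO against WT averaged over conditions they ran from -0.011 to 0.047 at Fosl2 and from -0.047 to 0.017 at Junb. In novelty against standard in WT they ran from -0.020 to 0.028 at Jun (second region), from -0.12 to 0.010 at Junb, from -0.072 to 0.14 at Junb (second region), from -0.11 to 0.12 at Jund (second region) and from -0.062 to 0.043 at Jund. In novelty against standard in KO they ran from -0.086 to 0.032 at Fos (second region), from -0.038 to 0.077 at Fosl2, from -0.076 to 0.013 at Jun, from -0.00098 to 0.098 at Jun (second region), from -0.077 to 0.19 at Junb (second region) and from -0.053 to 0.22 at Jund (second region). In novelty against standard averaged over genotypes they ran from -0.023 to 0.11 at Junb (second region) and from -0.027 to 0.11 at Jund (second region). In the interaction they ran from -0.063 to 0.057 at Fos, from -0.095 to 0.020 at Fosl2, from -0.041 to 0.048 at Jun, from -0.0059 to 0.093 at Jun (second region), from -0.049 to 0.079 at Junb, from -0.11 to 0.16 at Junb (second region) and from -0.051 to 0.22 at Jund (second region). In ifKO against ifWT they ran from -0.097 to 0.044 at Fos, from -0.075 to 0.017 at Fosl2, from -0.53 to 0.21 at Fosl2 (second region), from -0.046 to 0.14 at Jun (second region), from -0.16 to 0.058 at Junb and from -0.017 to 0.074 at Jund (second region).

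With 2 pools of 2 mice per group, 2 libraries set the spread, and the labels do not say whether pools share litters or handling.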
